A study of Homo sapiens with 26 samples.

Results

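The cytosolic ribosomal protein genes are the nuclear genes whose products combine with ribosomal RNA into the ribosome of the cytosol. Members were genes whose symbol is RPL or RPS followed by a number and an optional final A, X or L, together with RPLP0, RPLP1, RPLP2 and RPSA, with a mean over the 26 libraries of at least 10 CPM (a gene's counts divided by its library's total and scaled to a common library size). Pseudogenes were left out. Of 81 genes with such a symbol, 78 reached this level, 32 of the small subunit and 46 of the large subunit, out of 62778 gene identifiers in the count tables. The 3 below it were RPL39L at a mean of 4.05 CPM, RPL3L at 0.0908 CPM and RPL10L, which had no count in any library. FAU and RACK1 also encode cytosolic ribosomal proteins but fall outside the naming rule, and are described apart from the members.

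The study measured poly(A) RNA in 3 established cell lines from human pancreatic ductal adenocarcinoma, with HNF4A raised or lowered. HNF4A encodes a nuclear receptor of the gut and liver, made from 2 promoters, P1 and P2, whose isoforms begin with different sequences. Panc10.05 and BxPC3 each gave 2 libraries labelled P1-a2 (induction of the P1 isoform α2), 2 labelled P2-a8 (the P2 isoform α8) and 2 labelled NC. The titles give this control as GFP-NC in Panc10.05 and EV-NC in BxPC3, so the control construct differed between the lines. Every one of these 12 libraries came from cells given doxycycline, the NC libraries included: 500 ng/mL in all BxPC3 groups, 25 ng/mL in Panc10.05 P1-a2 and NC, and 12.5 ng/mL in Panc10.05 P2-a8. Isoform and dose therefore cannot be told apart between P1-a2 and P2-a8 in Panc10.05. Nor can induction and dose be told apart between P2-a8 and NC in that line. ASPC1 gave 14 libraries from CRISPR interference, in which a guide RNA brings a repressor to a promoter: 4 with guides against P1 (sgP1E, sgP1J), 4 with guides against P2 (sgP2D, sgP2G), 4 with guides against both (sgDual2, sgDual3) and 2 with the guide labelled sgNC, with 2 libraries per guide and no doxycycline label. Whether each engineered line was a clone or a pool, and whether replicates were separate cultures, is not given in the sources used here, so p-values measure the spread between these libraries, which may be technical.

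A ribosome of the cytosol holds a single copy of most of these proteins, and the genes are usually expressed together. Many of their mRNAs begin with a 5′ terminal oligopyrimidine tract (a C at the first base followed by a run of C and T), through which the kinase mTORC1 and the RNA-binding protein LARP1 set how actively they are translated and how long they are kept. MYC raises the transcription of many of them. Outside the ribosome, RPL5 and RPL11 bind MDM2 together with the 5S RNA, RPS27A is made as a fusion with ubiquitin, and RPS27L is a paralog of RPS27.

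The first transcribed bases of the members that the results turn on are shown because the tract lies there. Each sequence is RefSeq's (GRCh38.p14), 15 bases before and 15 after the start, on the strand of the gene. RPS27A and RPL13 have 3 listed starts each, not all of which are shown. Capitals mark a C at the start and every following C or T, where that run has at least 5 bases.
RPS27, chr1:153990747-153990776, plus strand: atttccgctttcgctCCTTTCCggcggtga
RPS27A, chr2:55232673-55232702, plus strand: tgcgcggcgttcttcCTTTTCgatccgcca
RPL13, chr16:89560667-89560696, plus strand: ttgcggggccgcttcCTTTCCgctcggctg
RPL29, chr3:51995881-51995910, minus strand: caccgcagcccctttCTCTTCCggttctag
RPLP0, chr12:120201097-120201126, minus strand: gcgcgggcgcgaggcCCTTCTCTCgccagg
RPS6, chr9:19380222-19380251, minus strand: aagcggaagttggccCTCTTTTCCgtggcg
RPL36A, chrX:101390996-101391025, plus strand: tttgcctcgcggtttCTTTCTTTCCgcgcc
RPL41, chr12:56116618-56116647, plus strand: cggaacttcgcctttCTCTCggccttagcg
RPS7, chr2:3575245-3575274, plus strand: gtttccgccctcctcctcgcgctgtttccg
RPL3, chr22:39319609-39319638, minus strand: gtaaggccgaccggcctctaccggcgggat
RPS27L, chr15:63157463-63157492, minus strand: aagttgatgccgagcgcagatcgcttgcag

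Of the 63 members with a listed start, 46 (73.0%) began with such a run, against 1404 of 27305 symbols in the same table (5.14%). The other 17, among them RPS7, RPL3 and RPS27L, did not have it at the listed base, which says only that these letters are not there. No start was listed for 15 members.

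Library totals ran from 26079388 to 50662077 counts. Levels per library below are CPM scaled by TMM, a normalization that evens out differences in RNA composition within a line. The labels were checked on HNF4A: it stood at 0.240 and 0.0580 CPM in Panc10.05 NC, 10.7 and 12.98 in P1-a2, and 37.6 in both P2-a8 libraries, and in BxPC3 at 1.08 and 0.464 in NC, 9.76 and 11.6 in P1-a2, and 12.6 and 14.2 in P2-a8. In ASPC1 it stood at 206 and 220 CPM with sgNC, 109 to 146 with sgP1, 76.7 to 93.9 with sgP2 and 3.19 to 13.6 with sgDual. The counts do not separate isoforms, so they check the amount of HNF4A and not which isoform was made. The epithelial keratins KRT8, KRT18 and KRT19 were at 582 CPM or more in all 26 libraries and EPCAM at 102 CPM or more, while in ASPC1 KRT7 stood at 0.498 to 8.40 CPM and CDH1 at 13.3 to 76.1 CPM. Of 17 markers of other cell types, INS and TTR (beta cells, hepatocytes) had no count and PTPRC (leukocytes) did not exceed 0.138 CPM. The highest were COL1A1 (fibroblasts) at up to 12.02 CPM in BxPC3, CD68 (macrophages) at up to 9.35 CPM in Panc10.05, and the endothelial CDH5 and VWF at up to 5.18 and 4.16 CPM in BxPC3. The library labelled sgP1J replicate 2 stood apart among the 14 of ASPC1: 76 of the 78 members had their highest level of that line in it, at a median of 0.35 above the line mean on the log2 scale. Counts of members past the threshold between ASPC1 targets are therefore given with and without it or its guide.

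The members took 3.92% to 6.28% of all counts of a library. In Panc10.05 they took 6.21% and 6.28% with P1-a2, 5.26% and 5.20% with P2-a8, and 4.91% and 5.39% with NC. Both P1-a2 libraries were above the other 4. In BxPC3 the shares were 4.61% and 4.38% with P1-a2, 4.97% and 4.88% with P2-a8, and 4.74% and 4.71% with NC, so that P1-a2 was the lowest of the 3 groups. In ASPC1 they were 4.37% and 4.50% with sgNC, 4.13% to 4.18% across the 4 sgDual libraries, 3.96% to 4.38% with sgP2 and 3.92% to 5.51% with sgP1, the upper end being sgP1J replicate 2. With 2 libraries against 2, the exact permutation test over libraries cannot go below p = 0.333, and with 2 against 4 not below 0.0667, so no difference in share could pass 0.05 except between groups of 4 libraries. There the two-sided exact permutation test gave p = 0.514 for sgP2 against sgP1, 0.314 for sgDual against sgP1 and 0.714 for sgDual against sgP2. It took the 4 libraries of a target as separate units, though they came from 2 guides. With the guide as the unit, 2 against 2, it could not go below 0.333 either.

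**Figure D1:**
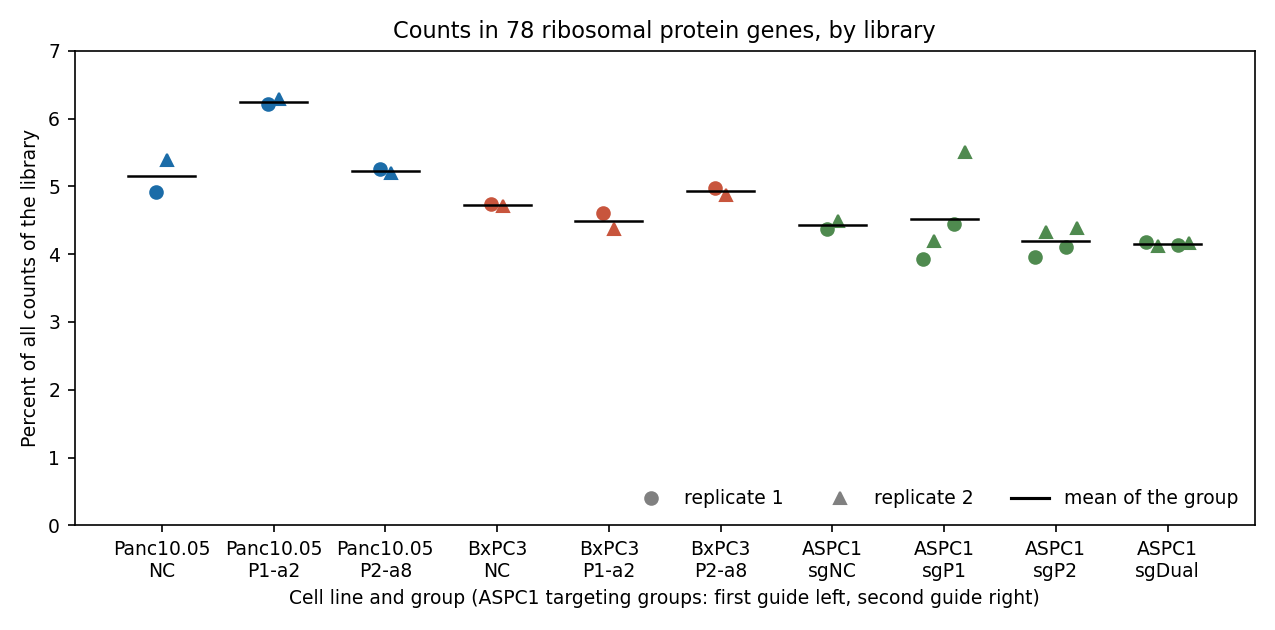
Share of all counts of each library that fell in the 78 ribosomal protein genes, in percent, by cell line and group. Circles are replicate 1, triangles replicate 2, and bars the mean of a group. The P1-a2 libraries are the highest of Panc10.05 (6.21% and 6.28%) and the lowest of BxPC3 (4.61% and 4.38%), and sgP1J replicate 2 (5.51%) stands above the other ASPC1 libraries.

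Within the list, mean levels ran from 31.1 CPM for RPS27L to 2365 CPM for RPS2. RPS2, RPLP0, RPL8, RPL7A and RPL4 had the highest and RPL34, RPL36A, RPS10, RPL17 and RPS27L the lowest means. CPM is not divided by transcript length, so this order does not rank the genes by number of transcripts. RPL36A, RPS10 and RPL17 each share exons on the same strand with a readthrough gene in GENCODE v29, as do 8 other members with some other gene, and reads in shared exons may not be assigned to either. Members also have many processed pseudogenes with similar sequence. Rows of such pseudogenes took 0.0528% to 0.0751% of counts as a group mean, and how reads common to both were treated is not given in the sources used here.

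The 3 lines differed in their control levels gene by gene. The highest of the 3 control means was in Panc10.05 for 41 members, in BxPC3 for 20 and in ASPC1 for 17, and the highest mean was a median of 1.58 times the lowest. RPL3, which builds the peptidyl transferase region, was nearly level at 981, 954 and 973 CPM in Panc10.05, BxPC3 and ASPC1. RPS6, the substrate of S6 kinase, stood at 1178, 618 and 402 CPM. RPS7 stood at 311, 196 and 585 CPM, and RPLP1, a stalk protein, at 555, 1278 and 666 CPM. The tables were normalized separately for each line and the lines were not tested against each other.

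After removal of each line's mean, RPS4X, RPL4, RPL10, RPL19 and RPL22 varied least over the 26 libraries, with a standard deviation of 0.09 to 0.10 on the log2 scale. RPS27, RPS7, RPS27L, RPS27A and RPL13 varied most, at 0.28, 0.28, 0.24, 0.22 and 0.21. The members mostly moved together from library to library: the median Pearson correlation of log2 CPM over 3003 pairs was 0.80 in Panc10.05 (6 libraries), 0.72 in BxPC3 (6) and 0.80 in ASPC1 (14). These are descriptions, since all members of a library share its depth and scaling. The spread and the ASPC1 correlations are given only with sgP1J replicate 2 included, in which 76 of the 78 members stood highest of that line. RPS27L followed the median of the others least in BxPC3 (r = -0.05) and in ASPC1 (r = 0.23), and RPL15 in Panc10.05 (r = -0.09).

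**Figure D2:**
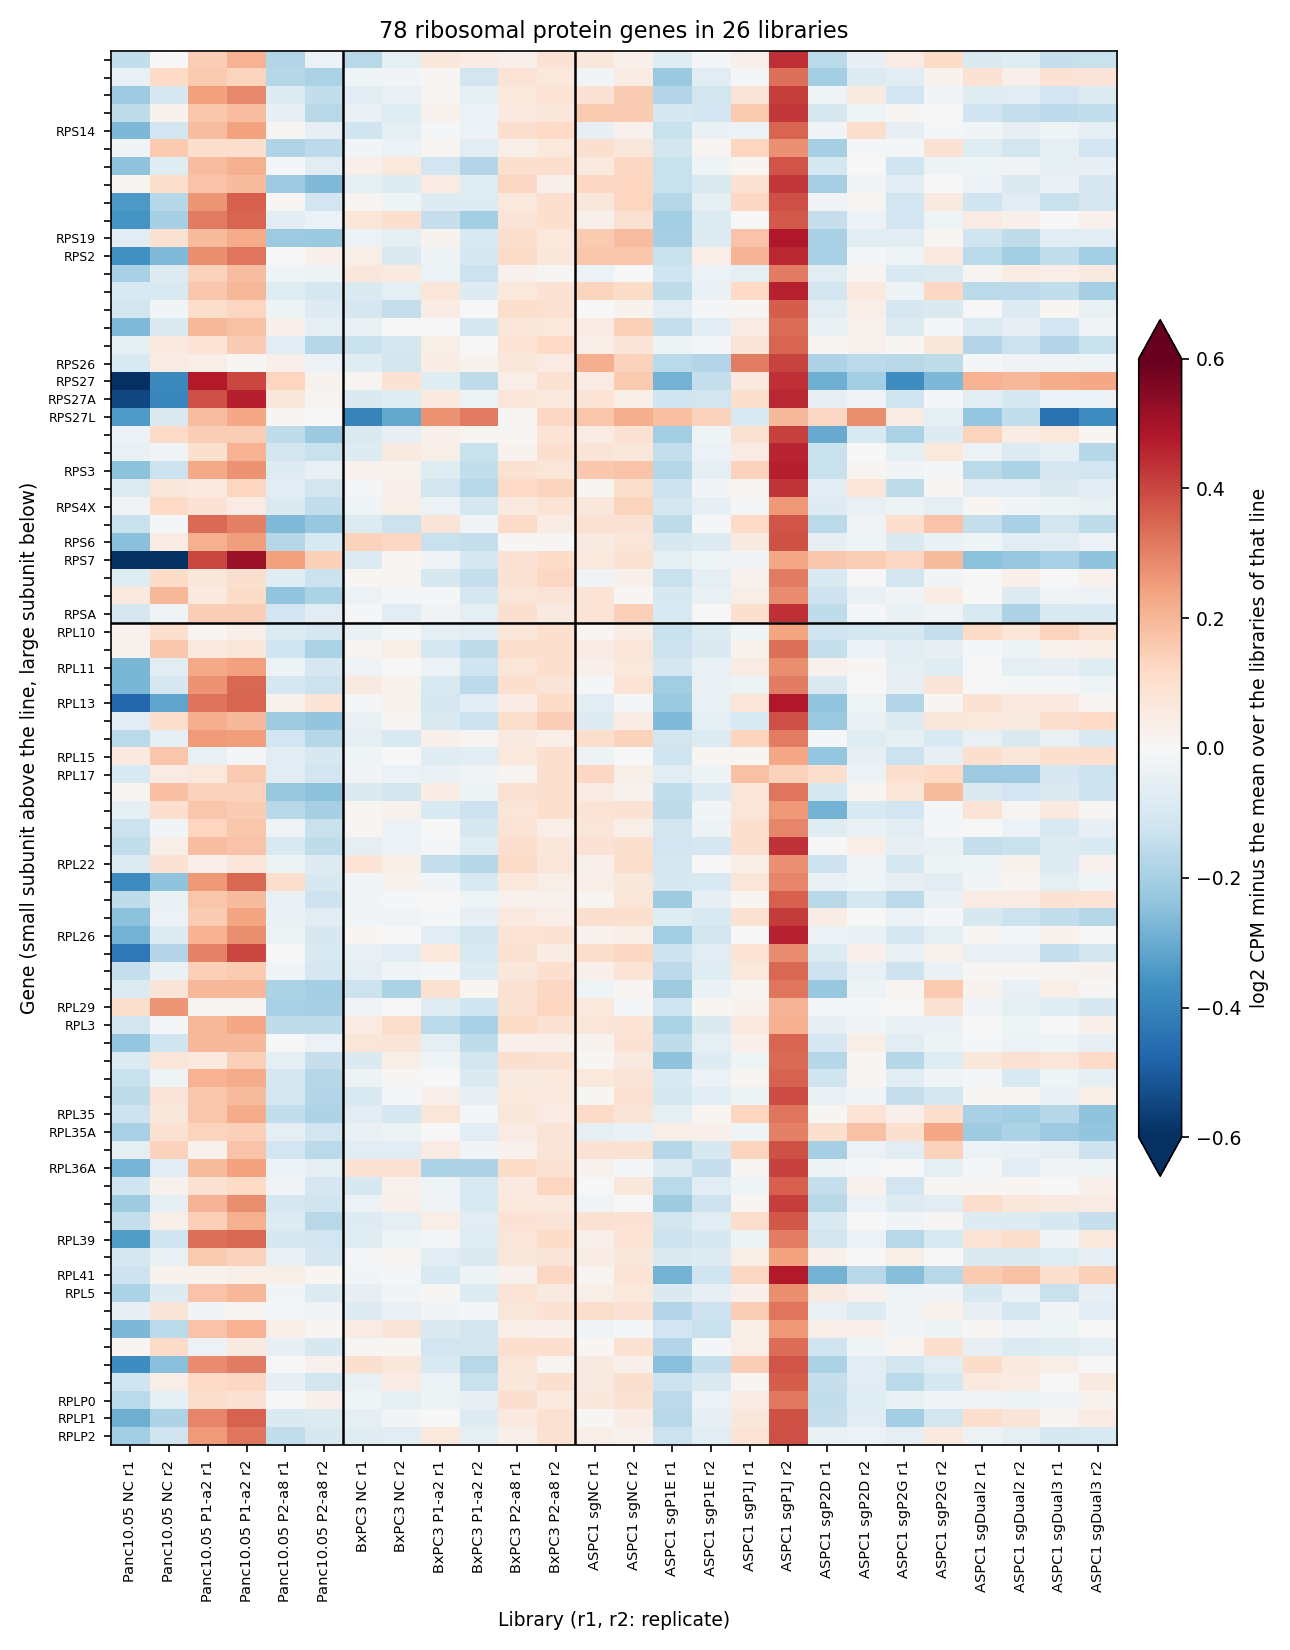
Log2 CPM of each member (rows, with names for some of those described) in each of the 26 libraries (columns), minus the mean of that member over the libraries of the same line. Red is above and blue below that mean, and values past the limits of the colour bar take its end colours. The P1-a2 columns are red in Panc10.05, the P2-a8 columns are red in BxPC3, and sgP1J replicate 2 is red in nearly every row.

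In Panc10.05, most ribosomal protein genes were higher with P1-a2 than with NC. Of the 78 members, 55 rose and 2 fell at a Benjamini-Hochberg adjusted p under 0.05 in edgeR's quasi-likelihood test, while 31.5% of all 17247 genes tested rose and 30.5% fell. The median log2 fold change over the members was 0.23, a ratio of 1.18, against 0.02 over all genes. The small subunit had 22 of 32 members higher and none lower at a median of 0.26, and the large subunit 33 of 46 higher and 2 lower at a median of 0.23.

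RPS7, a small subunit protein that also binds MDM2, moved most. It measured 645 and 700 CPM with P1-a2 and 298 and 324 with NC (672 ± 39.3 against 311 ± 18.3, SD, n = 2 each), and its log2 fold change was 1.11 ± 0.06 (SE, edgeR adjusted p = 1.9e-19). RPS27, a zinc-binding small subunit protein, measured 681 and 647 CPM against 314 and 375, a log2 fold change of 0.95 ± 0.07 (edgeR adjusted p = 3.4e-14). RPS27A, the ubiquitin fusion, measured 685 and 723 CPM against 359 and 399, a log2 fold change of 0.89 ± 0.06 (edgeR adjusted p = 1.4e-16). In each of these 3 genes both P1-a2 libraries were far above both NC libraries, by more than the spread within either group. RPL13 of the large subunit rose by 0.73 ± 0.06, from 742 and 826 CPM to 1290 and 1312 (edgeR adjusted p = 5.9e-14).

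All 3 stalk proteins, which recruit elongation factors, were higher: RPLP1 by 0.56, RPLP2 by 0.45 and RPLP0 by 0.20 on the log2 scale. RPL5 and RPL11, the partners of the 5S RNA, rose by 0.32 and 0.40. RPS6 rose by 0.33, RPS3 by 0.43, RPS14 by 0.40, RPL39 by 0.56 and RPL36A by 0.39. RPL10 (-0.04), RPS4X (0.02), RPL22 (0.05) and RPL41 (0.08) did not pass the threshold.

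The 2 members that fell were RPL29 and RPL15, both of the large subunit. RPL29 measured 580.0 and 580.9 CPM with P1-a2 and 617 and 689 with NC, a log2 fold change of -0.17 ± 0.06 (edgeR adjusted p = 0.013). RPL15 measured 562 and 577 CPM against 604 and 650, a log2 fold change of -0.14 ± 0.06 (edgeR adjusted p = 0.037). Neither pair of groups overlapped, but in 3 and 5 of 10 alternative settings these falls no longer passed the threshold.

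The NC libraries of Panc10.05 were unlike each other, with median offsets from the line mean of -0.14 in replicate 1 and -0.02 in replicate 2. Their counts in MALAT1, a nuclear RNA, were 252 and 527 CPM, and whether this took part in the result was not tested. Leaving out NC replicate 1 gave a median of 0.17 and 42 higher members, and leaving out NC replicate 2 a median of 0.32 and 66 higher members.

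With P2-a8 against NC in Panc10.05, at doses that differed, about as many members rose as fell. Of the 78, 16 rose and 17 fell, against 23.7% of all genes rising and 22.5% falling, so both shares were near those of all genes. The median log2 fold change was -0.02, and 0.05 without NC replicate 2. The members that led the rise were those that led it with P1-a2, and both comparisons use the same 2 NC libraries. RPS7 measured 580.1 and 540 CPM, a log2 fold change of 0.85 ± 0.06 (edgeR adjusted p = 4.2e-15), RPS27 535 and 496 CPM, 0.58 ± 0.07 (edgeR adjusted p = 8.0e-09), RPS27A 550 and 530 CPM, 0.51 ± 0.06 (edgeR adjusted p = 2.8e-09), and RPL13 1046 and 1088 CPM, 0.44 ± 0.06 (edgeR adjusted p = 5.8e-08). In each of the 4, the P2-a8 libraries lay between those of NC and those of P1-a2.

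RPL29, RPS9, RPL18 and RPS16 fell most. RPL29 measured 501 and 499 CPM against 617 and 689 with NC (-0.38 ± 0.06, edgeR adjusted p = 9.2e-07), and RPS9, RPL18 and RPS16 fell by 0.34, 0.34 and 0.30 on the log2 scale. RPS19, a small subunit protein mutated in Diamond-Blackfan anaemia, fell by 0.23, RPS4X by 0.17 and RPL10 by 0.16. RPLP1 rose by 0.16 and RPS14 by 0.17. RPLP0 (0.12), RPLP2 (0.04), RPSA (-0.03), RPS6 (-0.04), RPL5 (0.08) and RPL11 (0.10) did not pass.

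When the isoforms were compared with each other in Panc10.05, at doses that differed, 70 of 78 members were higher with P1-a2 and none was lower, while 22.2% of all genes were higher and 24.7% lower. All 78 log2 fold changes were above 0, with a median of 0.27 (a ratio of 1.21) and the lowest value, 0.00, in RPL41. In 75 members both P1-a2 libraries were above both P2-a8 libraries, an order seen in 36.0% of all genes. RPL39, at the mouth of the exit tunnel, measured 420 and 424 CPM against 312 and 308 (0.44 ± 0.06, edgeR adjusted p = 1.2e-07). RPL13A and RPS19 differed by 0.43 and 0.42. RPS7, RPS27 and RPS27A, which led against NC, differed by 0.26, 0.36 and 0.38, where the upper quartile of the members was 0.36. HNF4A itself was lower with P1-a2 than with P2-a8 (-1.66 ± 0.10, edgeR adjusted p = 5.0e-17). Isoform, dose and amount of HNF4A therefore cannot be told apart in this comparison.

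The 8 members that did not pass were RPL41, RPL6, RPS26, RPL15, RPLP0, RPL7A, RPL22 and RPL10, with log2 fold changes from 0.00 to 0.12. RPLP0, often used as a reference gene, measured 2710 and 2671 CPM against 2511 and 2571. Members with the pyrimidine run at the listed start had a median of 0.30 (41 of 46 higher) and those without it 0.22 (14 of 17 higher). With P1-a2 against NC in this line these medians were 0.23 and 0.16. They were -0.12 and -0.11 for P1-a2 against P2-a8 in BxPC3, and -0.10 and -0.13 for sgDual against sgNC in ASPC1. The difference by run was not tested. Leaving out P2-a8 replicate 2 lowered the count from 70 to 46.

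**Figure D3:**
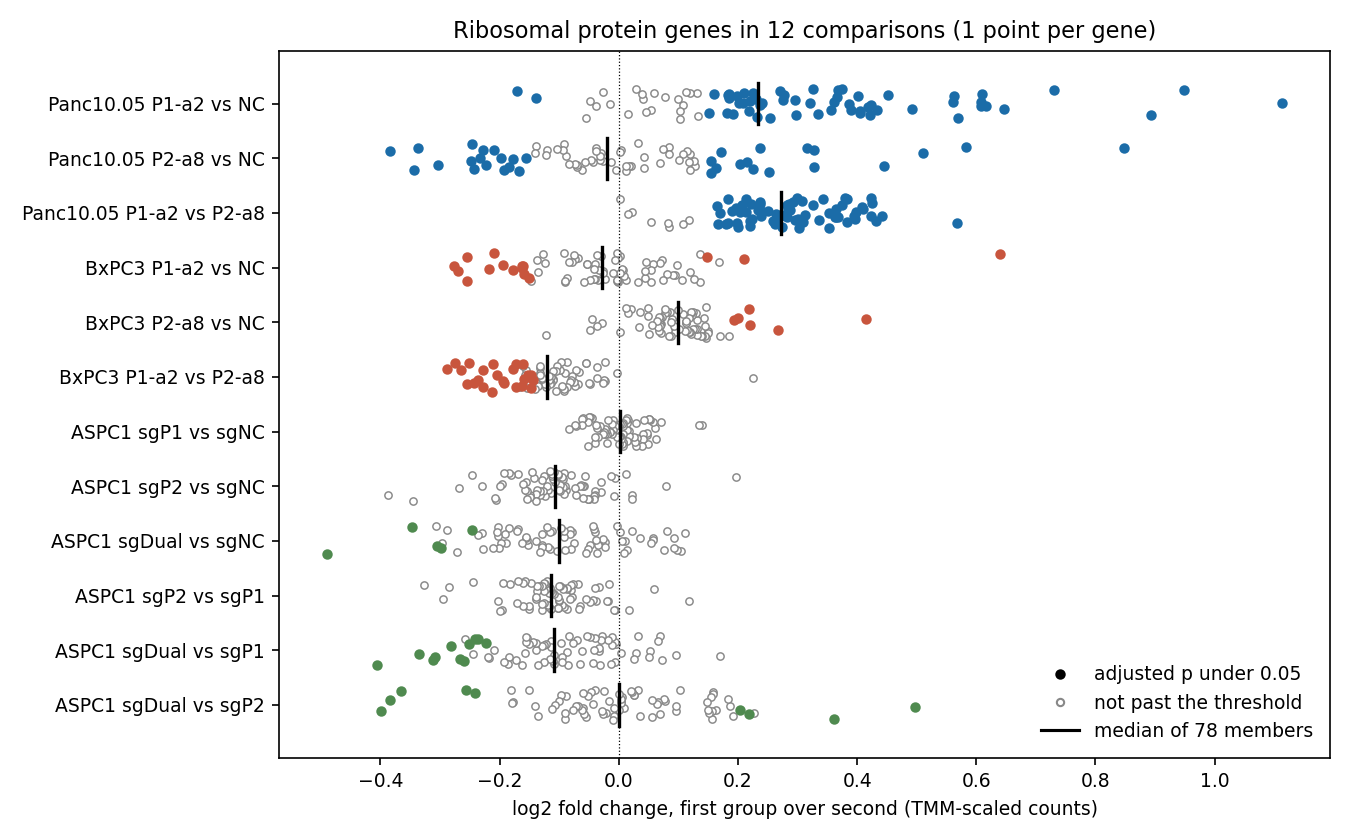
Log2 fold change of each of the 78 members (points) in the 12 comparisons within a line. Filled points have an adjusted p under 0.05 in edgeR, open points do not, and black bars are the medians. The members lie to the right of 0 in Panc10.05 P1-a2 against P2-a8 (median 0.27) and mostly to the left in the same comparison in BxPC3 (median -0.12), with RPS7, RPS27 and RPS27A at the far right against NC in Panc10.05.

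In BxPC3 the members moved little with P1-a2 against NC, and more of those past the threshold fell. RPS27L, RPL28 and RPS23 rose and 13 members fell, against 17.1% of all 17635 genes rising and 14.9% falling, so the share that fell (13 of 78) was near that of all genes. The median log2 fold change was -0.03. RPS27L measured 29.7 and 30.6 CPM with P1-a2 and 18.7 and 19.9 with NC (30.2 ± 0.633 against 19.3 ± 0.874, SD, n = 2 each), a log2 fold change of 0.64 ± 0.09 (edgeR adjusted p = 2.0e-04). Its paralog RPS27 went the other way, from 264 and 277 CPM to 249 and 235 (-0.16 ± 0.06, edgeR adjusted p = 0.045).

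RPL36A, RPS6, RPL3 and RPS18 fell most. RPL36A measured 134.5 and 135.0 CPM against 163.2 and 163.3 (-0.28 ± 0.05, edgeR adjusted p = 1.8e-03). RPS6 measured 514 and 511 CPM against 620.2 and 615 (-0.27 ± 0.05, edgeR adjusted p = 1.4e-03), and RPL3 809 and 791 CPM against 935 and 973 (-0.25 ± 0.05, edgeR adjusted p = 2.1e-03). In all 3 the groups were apart by more than their spread. RPL22 fell by 0.22 and RPS18 by 0.25. The stalk proteins RPLP0 (0.00), RPLP1 (0.00) and RPLP2 (0.07) did not pass, nor did RPL5 (0.00), RPL11 (-0.07) or RPSA (0.00). The count past the threshold was 7 in place of 16 without NC replicate 1, without NC replicate 2 or without P1-a2 replicate 2.

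With P2-a8 against NC in BxPC3 a small upward difference ran through most members. The log2 fold change was above 0 for 73 of 78, with a median of 0.10 (a ratio of 1.07), and in 68 members both P2-a8 libraries were above both NC libraries, an order seen in 27.7% of all genes. RPS27L, RPL28, RPS23, RPS25, RPS14 and RPL18 rose and none fell, against 4.3% of all genes rising and 2.69% falling. RPS27L measured 24.8 and 26.9 CPM (0.42 ± 0.09, edgeR adjusted p = 0.014), between the NC and the P1-a2 libraries. RPL28 measured 876 and 896 CPM against 753 and 720.2 (0.27 ± 0.05, edgeR adjusted p = 0.011). Of the 6 calls, none was left without NC replicate 1, NC replicate 2 or P2-a8 replicate 2, and 2 were left without P2-a8 replicate 1. With library totals in place of TMM scaling the median was 0.07 and 2 members passed.

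Between the isoforms in BxPC3, at the same dose, 24 members were lower with P1-a2 and none higher, against 10.8% of all genes lower and 11.6% higher. HNF4A itself did not differ past the threshold (-0.33 ± 0.17, edgeR adjusted p = 0.22). The log2 fold change was below 0 for 77 of 78 members, with a median of -0.12 (a ratio of 0.920). RPL36A measured 134.5 and 135.0 CPM with P1-a2 and 166 and 164 with P2-a8 (-0.29 ± 0.05, edgeR adjusted p = 2.5e-03). RPL3 measured 809 and 791 CPM against 975 and 961 (-0.27 ± 0.05, edgeR adjusted p = 2.4e-03). RPS3A and RPS18 followed at -0.26 each. RPS6, RPS3, RPS27, RPL10, RPL11, RPL22 and RPL26 also fell, by 0.15, 0.19, 0.18, 0.14, 0.16, 0.25 and 0.17. RPS27L was the one member above 0, at 0.23, and did not pass. The count was 6 without P2-a8 replicate 1, and 7 without P1-a2 replicate 2 or without P2-a8 replicate 2. Without P1-a2 replicate 2 the median was -0.08.

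The responses of both lines were compared directly as an interaction term, with all 12 libraries in a single model, where a positive value means a larger log2 fold change in Panc10.05. For P1-a2 against P2-a8, 74 of 78 members responded differently, all toward a higher value in Panc10.05, against 8.81% of all 19372 genes in that direction and 13.5% in the other. The median interaction was 0.41. RPL13A (0.68 ± 0.08, edgeR adjusted p = 1.5e-06), RPL3 (0.65 ± 0.08, edgeR adjusted p = 1.0e-06), RPS18 (0.65 ± 0.08) and RPL12 (0.64 ± 0.08) differed most. RPS27L (-0.01), RPS26 (0.06), RPL6 (0.12) and RPL41 (0.15) did not pass. The doxycycline doses differed between the lines, and between the isoforms in Panc10.05. HNF4A itself also responded differently (-1.33 ± 0.21, edgeR adjusted p = 1.7e-04). Line, dose and amount of HNF4A therefore cannot be told apart in this contrast. The contrasts against NC that follow also set the GFP-NC control of Panc10.05 beside the EV-NC control of BxPC3. In them HNF4A rose more in Panc10.05, by 2.35 ± 0.55 for P1-a2 and 3.68 ± 0.53 for P2-a8. Line, dose, amount of HNF4A and control therefore cannot be told apart in these contrasts.

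For P1-a2 against NC, 46 members responded more positively in Panc10.05 and none less, against 16.3% and 20.1% of all genes. RPS7 (1.15 ± 0.09, edgeR adjusted p = 5.5e-10), RPS27 (1.12 ± 0.10), RPS18 (0.87 ± 0.08) and RPL13 (0.83 ± 0.08) led. RPS27L, which rose in both lines, did not differ past the threshold (-0.21 ± 0.12, edgeR adjusted p = 0.19). For P2-a8 against NC, 9 members responded more positively and 20 less, against 11.5% and 11.9% of all genes. RPS7 (0.72 ± 0.09), RPS27 (0.57 ± 0.10), RPL13 (0.38 ± 0.08) and RPS27A (0.37 ± 0.08) were at one end and RPL18 (-0.53 ± 0.08), RPL29 (-0.50 ± 0.08), RPL28 (-0.46 ± 0.08) and RPS16 (-0.45 ± 0.08) at the other. This last count was 16 in place of 29 without Panc10.05 P2-a8 replicate 2.

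**Figure D4:**
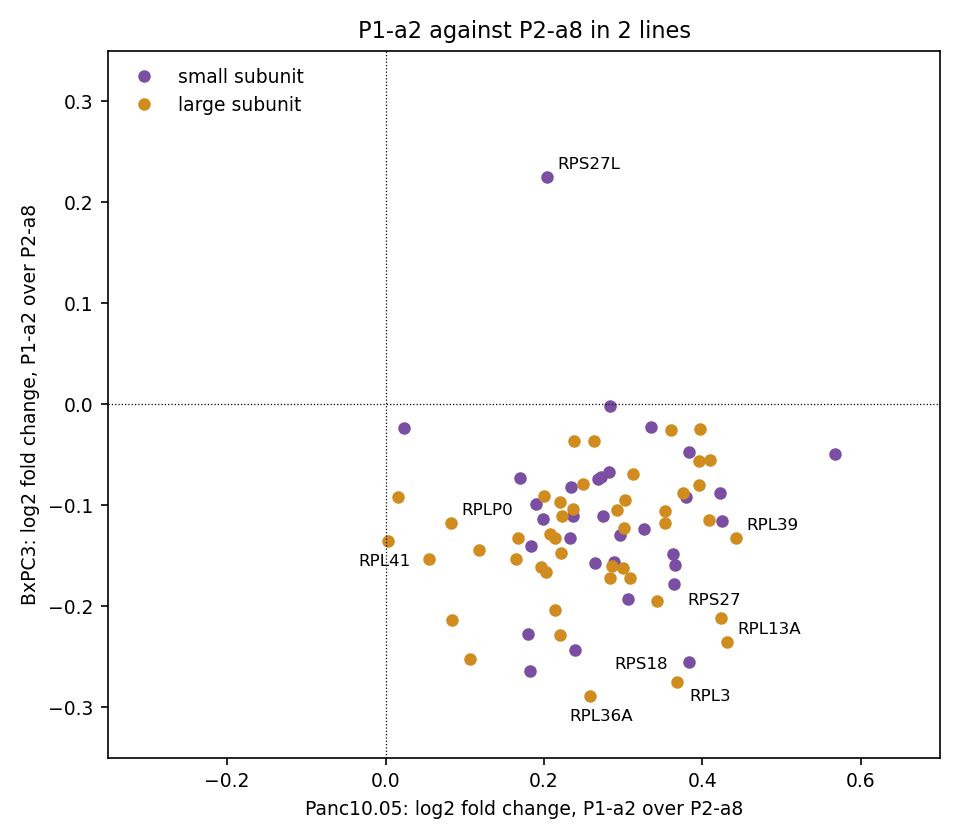
Log2 fold change of P1-a2 over P2-a8 for each member in Panc10.05 (horizontal) and BxPC3 (vertical), with no library shared between the axes. Purple points are small subunit and orange points large subunit members. All points lie at or right of 0, and all but RPS27L lie below 0, with RPL41 at the left edge.

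In ASPC1, the guides against P1 alone or P2 alone changed no member past the threshold. HNF4A itself did not pass in the same fits against sgNC. It fell by -0.72 ± 0.36 with sgP1 (edgeR adjusted p = 0.61) and by -1.30 ± 0.36 with sgP2 (edgeR adjusted p = 0.075), so these tests can miss a change. With sgP1 against sgNC, 0 of 78 members passed in edgeR, 0 had an unadjusted p under 0.05 and DESeq2 called 0, against 0.1% of all 16992 genes higher and 0.165% lower. The median was 0.00, and without sgP1J replicate 2 it was -0.11 with 0 members past the threshold. With sgP2 against sgNC, 0 members passed in edgeR, 3 had an unadjusted p under 0.05 and DESeq2 called 0, against 1.66% of all genes higher and 1.76% lower. The log2 fold change was below 0 for 73 of 78, with a median of -0.11. In 47 members every sgP2 library was below both sgNC libraries, an order seen in 15.6% of all genes. In 2 members every sgP2 library was above both, against 15.4% of all genes. RPS27 measured 268 to 301 CPM in the 4 sgP2 libraries and 358 and 386 with sgNC (-0.39 ± 0.14, edgeR adjusted p = 0.14), groups that did not overlap. With sgP2 against sgP1, 0 members passed in edgeR, 6 had an unadjusted p under 0.05 and DESeq2 called 0, against 2.17% of all genes higher and 2.13% lower, with a median of -0.11.

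These counts rest on how the sgP1 libraries are treated. Without guide sgP1J, 13 members were lower with sgP1 than with sgNC, and 1 was higher with sgP2 than with sgP1. Without guide sgP1E, 43 members were lower with sgP2 than with sgP1. Without sgP1E replicate 1, 4 members were lower with sgP2 than with sgP1, and without sgP1J replicate 2, 1 was higher. When the sgP2 and sgNC libraries were fitted on their own, 3 members differed.

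With sgDual in ASPC1, where HNF4A was lowest, 5 members fell and none rose against sgNC, fewer than the 17.8% of all genes lower and 17.8% higher. The median was -0.10. RPS27L measured 22.9 to 28.1 CPM across the 4 sgDual libraries and 35.0 and 36.3 with sgNC (25.4 ± 2.37, n = 4 libraries of 2 guides, against 35.7 ± 0.924, n = 2), a log2 fold change of -0.49 ± 0.11 (edgeR adjusted p = 2.2e-03). RPS7 measured 468 to 484 CPM against 579 and 591 (-0.30 ± 0.08, edgeR adjusted p = 6.0e-03). RPS2, the most counted member, measured 2130 to 2220 CPM against 2764 and 2759 (-0.35 ± 0.12, edgeR adjusted p = 0.033). RPL35 fell by 0.30 and RPL17 by 0.25. In all 5 every sgDual library was below both sgNC libraries, and in 51 of 78 members it was, against 29.7% of all genes.

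The sgDual libraries also had more counts in MALAT1 (513 CPM as a mean, against 261 with sgNC) and in mitochondrial genes (9.53% against 8.81%), whose part in the result was not tested. The spread in this fit is shared with the sgP1 libraries. With sgP1J replicate 2 left out of the fit 21 members fell, and with the sgDual and sgNC libraries alone 33 fell. In the other direction, 3 were left without sgDual2 replicate 1, 3 without sgDual2 replicate 2, 2 without sgNC replicate 1 and 1 without sgNC replicate 2.

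RPS27L, RPS7, RPL35 and RPL17 were also lower with sgDual than with sgP2 (-0.40, -0.38, -0.26 and -0.24), as was RPL35A (-0.37 ± 0.07, edgeR adjusted p = 4.3e-04), and these comparisons share the sgDual libraries. At the same time RPS27, RPL41, RPL10 and RPL15 were higher. In all 4 were higher and 5 lower, against 22.8% and 23.5% of all genes, with a median of 0.00. RPS27 measured 398 to 406 CPM with sgDual and 268 to 301 with sgP2 (0.50 ± 0.11, edgeR adjusted p = 2.3e-03). RPL41, a peptide that is nearly all arginine and lysine, measured 381 to 401 CPM against 292 to 316 (0.36 ± 0.12, edgeR adjusted p = 0.020). RPL10, at the peptidyl transferase centre, rose by 0.22. With the libraries of both groups alone, 18 were higher and 9 lower.

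Against sgP1, 11 members were lower with sgDual and none higher, against 19.7% of all genes lower and 18.6% higher. RPS27L (-0.41 ± 0.09, edgeR adjusted p = 1.9e-03), RPS2 (-0.34 ± 0.10), RPL35 (-0.31 ± 0.07) and RPL35A (-0.31 ± 0.07) fell most. Without guide sgP1E 44 were lower, and without guide sgP1J 16 were higher and 5 lower. The count was 6 or 7 without any 1 sgDual library, 6 without sgP1J replicate 1 and 19 without sgP1E replicate 1, and without sgP1J replicate 2 it was 8 higher and 7 lower. The small subunit's part of the members' counts was 39.2% to 39.5% in the 4 sgDual libraries and 40.3% to 41.4% in the other 10 of ASPC1.

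**Figure D5:**
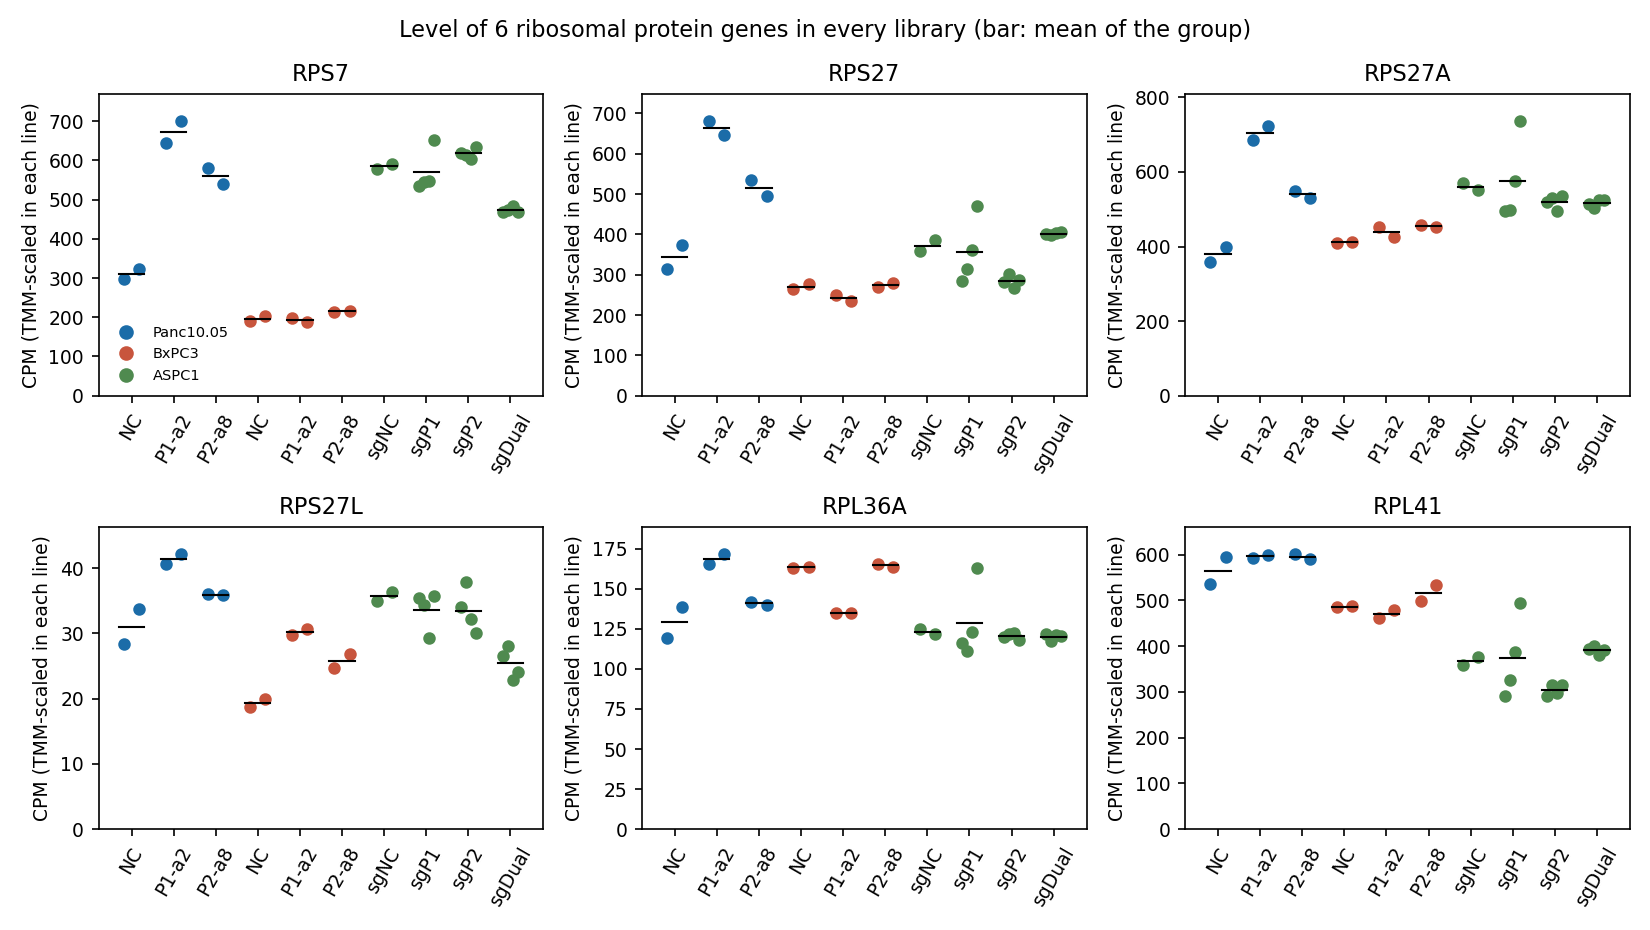
CPM, scaled by TMM within each line, of RPS7, RPS27, RPS27A, RPS27L, RPL36A and RPL41 in every library, with bars at the mean of a group. The panels for RPS7, RPS27 and RPS27A show the steps from NC to P2-a8 to P1-a2 in Panc10.05, and that for RPS27L shows the rise from NC in BxPC3 and the lower sgDual libraries in ASPC1.

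Guides to the same promoter were also compared. Between sgP1E and sgP1J, 46 members differed, all lower with sgP1E, against 14.5% of all genes in either direction. The median was -0.30. RPS26 measured 225 and 223 CPM with sgP1E and 312 and 334 with sgP1J (-0.53 ± 0.06, edgeR adjusted p = 1.3e-04), and RPL41 291 and 327 against 387 and 494 (-0.51 ± 0.10, edgeR adjusted p = 4.4e-03). HNF4A did not differ past the threshold between these guides (0.35 ± 0.41, edgeR adjusted p = 0.63). The count was 6 without sgP1J replicate 2, 76 without sgP1J replicate 1, 5 without sgP1E replicate 1, 21 without sgP1E replicate 2 and 1 with the 4 libraries alone. Between sgP2D and sgP2G 0 members passed in edgeR, 2 had an unadjusted p under 0.05 and DESeq2 called 0, against 1.69% of all genes. Between sgDual2 and sgDual3 0 passed in edgeR, 1 had an unadjusted p under 0.05 and DESeq2 called 0, against 0.883%.

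Genes related to the members were described from lists. Of the ribosomal proteins outside the naming rule, RACK1 and FAU rose with P1-a2 against NC in Panc10.05, by 0.44 and 0.37. With P2-a8 RACK1 rose by 0.27, and FAU did not pass (-0.04). RPL39L, a paralog of RPL39 below the level minimum, went the other way. It measured 5.44 and 5.76 CPM with P1-a2, 8.59 and 8.65 with P2-a8 and 14.6 and 16.3 with NC, log2 fold changes of -1.46 ± 0.11 (edgeR adjusted p = 8.7e-15) and -0.84 ± 0.11 (edgeR adjusted p = 1.8e-08) against NC. RPL36AL, the autosomal copy of RPL36A, fell in both (-0.25 and -0.27), while RPL36A itself rose with P1-a2. In BxPC3 with P1-a2 the signs were the other way round: RPL36AL rose by 0.26 and RPL36A fell by 0.28 on the log2 scale. RPL26L1, a paralog of RPL26, rose with P1-a2 against NC in both lines (0.38 in Panc10.05 and 0.31 in BxPC3).

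Of 26 other RNAs, coding or noncoding, known for a 5′ pyrimidine tract, 12 rose and 5 fell with P1-a2 against NC in Panc10.05 (median 0.12), where 31.5% of all genes rose and 30.5% fell. Those that rose most were the noncoding GAS5 (0.96) and the mRNA of PABPC1 (0.86), and those that fell most were VIM (-1.73) and NAP1L1 (-0.52). With P2-a8 against NC 8 rose and 9 fell (all genes 23.7% and 22.5%), and in P1-a2 against P2-a8 14 were higher and 4 lower (22.2% and 24.7%). In BxPC3 with P1-a2 against NC 3 rose and 4 fell (all genes 17.1% and 14.9%), and with sgDual against sgNC in ASPC1 3 rose and 5 fell (17.8% in each direction).

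Among 19 listed regulators of these genes, 18 were tested in Panc10.05 and BxPC3. With P1-a2 against NC, 7 rose and 6 fell in Panc10.05 (all genes 31.5% and 30.5%), and 8 rose and 2 fell in BxPC3 (17.1% and 14.9%). In Panc10.05 CDKN1A (1.32) rose most and ZBED1 (-1.115) fell most in that comparison. MYC rose with P1-a2 against NC in Panc10.05 (0.30 ± 0.06) and fell with P2-a8 (-0.44 ± 0.06), and it differed by 0.74 between the isoforms. In BxPC3 MYC did not pass in any of the 3 comparisons (0.03 with P1-a2 against NC, -0.16 with P2-a8 against NC, 0.20 between the isoforms). MYC fell with sgDual against sgNC in ASPC1 (-0.61 ± 0.11). In Panc10.05, RPTOR fell against NC with P1-a2 and with P2-a8 (-0.73 and -0.34). MTOR (0.29 and 0.16) and LARP1 (0.26 and 0.24) rose with both. Between the isoforms in that line RPTOR was lower with P1-a2 (-0.39), and MTOR (0.13) and LARP1 (0.01) did not pass. Whether MYC or any other listed regulator took part in the members' differences was not tested.

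The 78 mitochondrial ribosomal protein genes work in a separate ribosome. In Panc10.05, 47 were higher and 2 lower in P1-a2 against P2-a8 (median 0.22, all genes 22.2% and 24.7%), where 70 of the 78 cytosolic members were higher. Against NC, 34 rose and 16 fell with P1-a2 (median 0.12, all genes 31.5% and 30.5%), and 12 rose and 31 fell with P2-a8 (median -0.12, all genes 23.7% and 22.5%). In BxPC3, 11 were higher and 1 lower in P1-a2 against P2-a8 (median 0.04, all genes 11.6% and 10.8%), where 24 cytosolic members were lower. With sgDual against sgNC in ASPC1 1 rose and 53 fell (median -0.32, all genes 17.8% in each direction), where 5 cytosolic members fell (median -0.10). The difference between the cytosolic and mitochondrial lists was not tested.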

How the data were processed

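Poly(A) RNA was sequenced from 26 libraries of 3 cell lines. The authors deposited raw counts per Ensembl gene, 1 table per line. STAR 2.7.9a, cutadapt 1.16, featureCounts 1.6.3, DESeq2 1.36.0 and GRCh38 are named, without roles, per the submitters' processing notes. The annotation release, the strand setting and the treatment of reads that map to several places are not given in the sources used here, so reads from opposite-strand exons (28 members) or near-identical copies may be split or lost. No column of an unlisted sample was present.

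Gene symbols came from the reference tables and matched 99.88% to 99.91% of identifiers. For each line, genes were filtered with filterByExpr, scaled by TMM and tested with edgeR 4.0.16 (R 4.3.3), glmQLFit with robust estimation and glmQLFTest, over all groups of the line. In the tests between ASPC1 targets, the 4 libraries of a target, 2 per guide, were taken as separate replicates of 1 group. P-values were adjusted by Benjamini-Hochberg over all genes tested, with a threshold of 0.05. Levels per library and per group are CPM scaled by TMM, while the means used for the rule, the cell markers and MALAT1 are plain CPM. Shares of counts were compared by exact permutation over libraries, two-sided. DESeq2 1.42.0, other scalings, other filters, a replicate block and the leaving out of libraries were alternatives, and the script was tested on simulated data. Library totals were 34618745 to 46827673 counts in Panc10.05, 26369154 to 37483772 in BxPC3 and 26079388 to 50662077 in ASPC1. Members named were the 4 highest and the 4 lowest called in each comparison, a list of 22 genes by role, those with extreme mean or spread, and the extreme genes of the related lists. Some genes that this rule names are not reported here. Members that did not pass where most did were named after their values were seen. The members and lists were chosen with earlier results of these data known. The fits of ASPC1 without sgP1J replicate 2 for the spread, and those by guide means, were chosen after seeing the data.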

Additional observations from a re-analysis of the deposited data

Results flagged for a closer look

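Values of 29 members and the members' share of counts were looked at in the 3 groups of ASPC1 with 4 libraries (90 sets of values). A single library stood away from the other 3 in 5 sets, near the 1 in 20 that chance gives for 4 like libraries. Each set mixes 2 guides, and the members move together, so the sets are not independent. In sgP1J replicate 2, RPL35A stood at 346 CPM (median of the sgP1 libraries 288) and RPS7 at 651 CPM (median 546). RPL17 stood at 24.6 CPM in sgP2D replicate 2 (median of the sgP2 libraries 27.1). RPLP2 stood at 458 CPM in sgP2G replicate 2 (median 429). RPSA stood at 615 CPM in sgDual2 replicate 2 (median of the sgDual libraries 656).

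The difference between the lines in their response, tested as an interaction in edgeR, passed the threshold for 46 members in P1-a2 against NC, for 29 in P2-a8 against NC and for 74 in P1-a2 against P2-a8.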

How the results depend on the processing

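Across all settings run, 417 summary values stayed on their side and within the margin, 72 moved, 8 changed sign and 1 became past the threshold. For single members, 1001 values kept their call, 267 lost it and none changed sign.

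With DESeq2 the members past the threshold in BxPC3 numbered 10 (P1-a2 against NC) and 14 (P1-a2 against P2-a8), and with only the groups compared in the fit also 10 and 14. For P2-a8 against NC, library totals gave 2 members and a median of 0.0653, and only the groups compared a median of 0.0867. The replicate numbers do not pair samples by the labels. The correlation of same-numbered deviations was -0.03 to 0.02 in Panc10.05, 0.17 to 0.31 in BxPC3 and 0.18 to 0.58 in ASPC1. With the replicate block the counts were 29, 32 and 50 in BxPC3 (P1-a2 against NC, P2-a8 against NC, P1-a2 against P2-a8) and 74 between sgP1E and sgP1J, where library totals gave 30 and the 4 libraries alone 1. No other count moved by over 1.5 times with the block.

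In ASPC1, with only the groups compared the counts were 3 (sgP2 against sgNC), 33 (sgDual against sgNC), 7 (sgDual against sgP1) and 27 (sgDual against sgP2). With sgP1J replicate 2 left out of the fit, so that 13 libraries gave the spread, they were 1 (sgP2 against sgNC), 21 (sgDual against sgNC) and 21 (sgDual against sgP2). With each target taken as the mean of its guides they were 2 (sgP2 against sgNC), 19 (sgDual against sgNC), 3 (sgP2 against sgP1), 20 (sgDual against sgP1) and 17 (sgDual against sgP2). Without guide sgP1J they were 13 (sgP1 against sgNC), 1 (sgP2 against sgP1) and 21 (sgDual against sgP1), with medians of 0.0591 and 0.0477 for the last 2 comparisons in place of values below 0. Without guide sgP1E they were 43 (sgP2 against sgP1) and 44 (sgDual against sgP1). Without guide sgDual2 they were 2 (against sgNC), 4 (against sgP1) and 4 (against sgP2), without guide sgDual3 3, 4 and 5, and without guide sgP2G 4 (sgDual against sgP2). With mitochondrial genes out of the total, the share with sgDual minus that with sgP2 was 0.0201 percentage points in place of -0.0483.

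Leaving out 1 library of the groups compared at a time gave these ranges. In Panc10.05, P1-a2 against NC had medians of 0.17 to 0.32, P2-a8 against NC medians of -0.0677 to 0.0468 and share differences of -0.16 to 0.31 percentage points, and P1-a2 against P2-a8 46 to 66 members and medians of 0.24 to 0.30. In BxPC3, P1-a2 against NC had 7 to 11 members, P2-a8 against NC 0 to 2 members and medians of 0.0738 to 0.0947, and P1-a2 against P2-a8 6 to 16 members and medians of -0.143 to -0.0791. In ASPC1, share differences were -0.25 to 0.28 percentage points for sgP1 against sgNC, -0.523 to 0.00645 for sgP2 against sgP1, -0.571 to -0.0418 for sgDual against sgP1 and -0.126 to 0.0154 for sgDual against sgP2. Counts were 1 to 4 for sgDual against sgNC, 0 to 4 for sgP2 against sgP1, 6 to 19 for sgDual against sgP1 and 5 to 76 between sgP1E and sgP1J. The interaction count for P2-a8 against NC was 16 to 31. The cause was not tested for any of these, beyond the smaller number of libraries in each.

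With 2 libraries in most groups the standard errors rest on a spread shared across groups. The effect of depth on the calls was not tested, and the lowest mean level of a member was 31.1 CPM.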
